A study of Mus musculus with 6 samples.

Results

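The cytosolic ribosome is built from RNA and a large family of small, abundant proteins, each encoded in mouse by a gene named Rpl (large subunit), Rps (small subunit), Rplp0 to Rplp2 (the stalk of the large subunit) or Rpsa. Their messenger RNAs were followed in microglia, the resident macrophages of the brain, with and without the microRNA gene Mir137. All 76 gene symbols of that form were taken from the 24411 symbols of the deposited count table by their names alone: 46 of the large subunit, stalk included, and 30 of the small subunit. RNA was sequenced from primary microglia of 8-week-old C57BL/6J mice that were Mir137 knockout (gKO, 3 libraries) or wild type (gWT, 3 libraries). The comparison asks what the loss of miR-137 does to the microglial transcriptome. No label ties a library to an animal, and the 4 mice of the design text are not assigned to libraries. The replicate spread behind every p-value may therefore be technical. In RNA from bulk cells, fewer cells of a type and less RNA per cell cannot be told apart.

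Ribosomal proteins are made in near-equal amounts, and their genes are commonly transcribed and translated together. Their messenger RNAs are short, and most begin with a run of pyrimidines, the 5′ terminal oligopyrimidine (TOP) motif, through which the growth kinase mTOR and the RNA-binding protein LARP1 set their translation and stability. The family has many processed copies in the mouse genome, that is, intronless pseudogenes made by reverse transcription, and reads from a parent gene can be assigned to such a copy.

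The starts of 6 members that hold such a run are shown as examples of the motif. They are 30-base stretches around the annotated transcription start, from the RefSeq promoter table of GRCm38.p6, read in the direction of transcription. The positions are chr7:45128728-45128757 on the minus strand for Rpl13a, chr7:45718059-45718088 on the plus strand for Rpl18, chrX:37085205-37085234 on the minus strand for Rpl39, chr7:141447639-141447668 on the plus strand for Rplp2, chr7:3704029-3704058 on the plus strand for Rps9 and chr3:90213631-90213660 on the minus strand for Rps27. Capitals mark the run that begins with C.
Rpl13a: accctgcgacaagaCCTCCTCCTTTCCCag
Rpl18: gtctcgcaggccgCTCTTTCCCCgcccact
Rpl39: aagctccgcctctagcgaCTTCTTCTaatc
Rplp2: gtcagcgtCTTCCTTTCgccgccggacgcc
Rps9: gccttgtCTCTCTTTgtctcgggcctgagt
Rps27: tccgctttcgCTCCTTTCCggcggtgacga

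A run of C followed by at least 4 pyrimidines (C or T), on the transcribed-sense strand only, with its first base within 10 bases of the annotated start, was present in 34 of the 56 members that the table holds (60.7%). The same run was present in 34.4% of the 27025 genes of the table. A gene or member counted if any of its annotated promoters held the run. Annotated starts need not be the exact starts used in microglia.

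Library totals lay between 14603884 and 17652976 counts. All 10 microglial marker genes that were checked had counts in every library, and their summed level was 39356 to 41758 CPM (counts divided by the library total and put on a common scale with the TMM factors of edgeR) in gKO and 38117 to 40976 CPM in gWT. gKO replicate 3 stood out by its trend with length. Across 12922 genes, the deviation of a library from the mean rose with transcript length in gKO replicates 1 and 2 (Spearman rho = 0.251 and 0.309) and fell with it in gKO replicate 3 (rho = -0.537), against 0.254, -0.0265 and 0.102 in gWT replicates 1, 2 and 3. Ribosomal protein genes are short, with coding lengths of 75 bases (Rpl41) to 1257 bases (Rpl4) and a median of 454.5 bases. The comparison with and without gKO replicate 3 was set beforehand, since this library stood apart in earlier results of these data. The counts of called genes and the medians of the family and of the ribosome-related lists are given both ways. They are also given with this length trend removed.

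In gKO replicates 1, 2 and 3 the family took 2.98%, 2.91% and 5.66% of all counts, against 3.25%, 3.84% and 3.59% in the gWT replicates. The 95% Wilson intervals, which cover counting error only, reach at most 0.0117 percentage points to either side. The gKO libraries therefore lie on both sides of the gWT libraries: replicates 1 and 2 were below all of them and replicate 3 was above all of them. The mean share was 3.85 ± 1.57% in gKO and 3.56 ± 0.297% in gWT (SD, n = 3 each), a difference smaller than the spread within gKO. Without replicate 3 the mean of the gKO libraries was 2.95%, which is 0.828 of the gWT mean, whereas the share of replicate 3 was 1.59 times the gWT mean. Large and small subunit genes had the same order of libraries. The large subunit took 1.77%, 1.74% and 3.29% in gKO and 1.92%, 2.28% and 2.13% in gWT, and the small subunit took 1.21%, 1.18% and 2.37% in gKO and 1.33%, 1.56% and 1.46% in gWT.

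**Figure D1:**
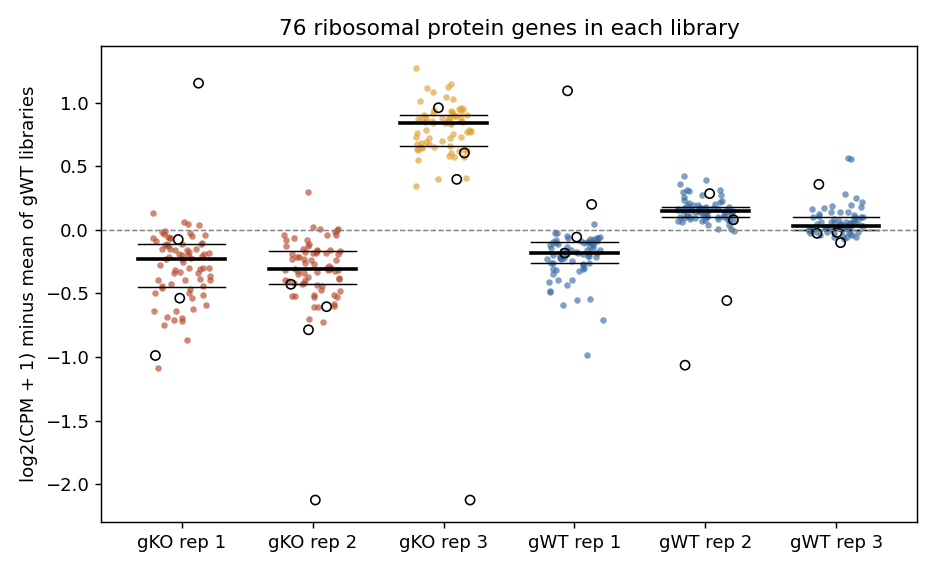
Each point is the log2(CPM + 1) of 1 of the 76 genes in 1 library minus its mean over the gWT libraries; thick lines are medians, thin lines are quartiles, and open circles mark Rpl26, Rpl30, Rpl34 and Rps27, whose counts fall mostly in a copy. The gKO medians, by replicate number, are -0.23, -0.31 and 0.84, against -0.18, 0.15 and 0.03 in gWT replicates 1, 2 and 3.

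The rise in gKO replicate 3 extended over nearly the whole family. This library was the highest of the 6 for 75 of the 76 genes, against 31.3% of the 13403 genes tested, and it was at least 1.5-fold above the gWT mean for 65 genes, against 18.6%. The median ratio to the gWT mean was 1.76. Rpl26 was the exception, with 0 counts in this library, which allows up to 0.212 CPM, and its counts are taken up below. Leaving out the 4 genes marked with open circles, the ratio ran from 1.27 for Rpl4, which lines the peptide exit tunnel, to 2.41 for Rpl39, a small protein near the tunnel exit.

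In gKO replicates 1 and 2 the family was low. Both libraries were below every gWT library for 41 of the 76 genes, against 20.9% of the 13814 genes tested without replicate 3, and both were above every gWT library for 0 genes, against 19.8%. The median ratio of their mean to the gWT mean was 0.826. The gWT libraries differed among themselves as well: gWT replicate 1 was the lowest of the 3 for 72 members, against 36.3% of all genes tested. With all 6 libraries, every gKO library was below every gWT library for 0 members, against 11.3% of genes tested.

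With all 6 libraries, 0 of the 76 genes were called higher and 0 lower in gKO (edgeR's quasi-likelihood test, a p under 0.05 after Benjamini-Hochberg adjustment), against 0.395% and 0.231% of all genes tested. The number of members with an unadjusted p under 0.05 was also 0, against 5.16% of genes in the higher and 5.74% in the lower direction, and DESeq2 and limma-voom called 0. Limma-voom with sample weights called 0 as well, with 11 members lower at an unadjusted p under 0.05, against 8.77% of genes. The median log2 fold change was 0.15, with 64 genes positive, against 50.9% of genes tested, and 12 negative. Over all genes tested the median was 0.0076. The estimates ran from -0.52 for Rpl26 to 0.49 for Rps24, a small subunit protein whose human gene is mutated in Diamond-Blackfan anaemia. Rps24 had 365, 379 and 824 CPM in gKO replicates 1, 2 and 3, against 356, 401 and 362 CPM in gWT, with an SE of 0.30 and an edgeR adjusted p of 0.629. The Rps24 levels of gKO replicates 1 and 2 lie within the range of gWT, and its log2 fold change without replicate 3 was -0.01. Rpl17, which sits at the tunnel exit, had the next largest estimate of 0.47 (SE 0.29, edgeR adjusted p = 0.635), and -0.01 without replicate 3.

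Without gKO replicate 3, which leaves 2 gKO libraries against 3, the family was lower in gKO. Of the 76 genes, 23 were called lower and 0 higher (edgeR), against 3.82% and 3.99% of the 13814 genes tested. An unadjusted p under 0.05 in the lower direction was found for 49 members, against 12.3% of all genes. The median log2 fold change was -0.28, with 74 genes negative, against 52.9% of genes tested. Over all genes the median was -0.02. The called genes fell by 0.26 (Rplp0) to 0.69 (Rpl34) on the log2 scale, that is, to between 0.832 and 0.618 of the gWT level. For all 23 of them both gKO libraries were below every gWT library. The 23 were selected by p in these same libraries, so this separation adds no support.

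The stalk proteins Rplp0, Rplp1 and Rplp2 recruit elongation factors to the ribosome. Rplp1 (chr9:61913284-61914542, 3 exons) had 745, 783 and 1716 CPM in gKO replicates 1, 2 and 3, against 925, 1151 and 1031 CPM in gWT. Without replicate 3 the gKO values are all below gWT, and the log2 fold change was -0.45 (SE 0.08, edgeR adjusted p = 0.0029). Rplp0 (chr5:115559467-115563727, 7 exons), the scaffold of the stalk and a common reference gene in quantitative PCR, had 986, 922 and 1694 CPM in gKO, against 1059, 1201 and 1156 CPM in gWT. It fell by 0.26 without replicate 3 (SE 0.06, edgeR adjusted p = 0.0218) and had a log2 fold change of 0.08 with all libraries (edgeR adjusted p = 0.939). Rplp2 had 275, 306 and 575 CPM in gKO, against 269, 339 and 311 CPM in gWT, so that its groups overlap with or without replicate 3. Its log2 fold change was -0.09 (edgeR adjusted p = 0.628) without replicate 3, and the difference between the stalk genes was not tested.

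In the large subunit, 15 of 46 genes were called lower without replicate 3, stalk genes included, and the median log2 fold change was -0.28. Rpl13a (chr7:45125558-45128761, minus strand, 8 exons), which in human monocytes also silences inflammatory messenger RNAs once it is released from the ribosome, had the smallest p of the family. It had 817, 768 and 1459 CPM in gKO replicates 1, 2 and 3, against 1044, 1222 and 1064 CPM in gWT. Both lower gKO libraries are below the whole gWT range and replicate 3 is above it. Its log2 fold change was -0.49 (SE 0.07, edgeR adjusted p = 0.000737) without replicate 3 and -0.13 (SE 0.24, edgeR adjusted p = 0.90) with it. Rpl18, a structural protein of the subunit, had 398, 361 and 770 CPM in gKO, against 464, 530 and 510 CPM in gWT, with a log2 fold change of -0.41 (SE 0.07, edgeR adjusted p = 0.0035) without replicate 3.

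Rpl27 had 194, 204 and 505 CPM in gKO, against 239, 307 and 282 CPM in gWT (log2 fold change without replicate 3 -0.48, edgeR adjusted p = 0.0058). Rpl27a had 301, 322 and 760 CPM in gKO, against 370, 426 and 396 CPM in gWT (log2 fold change -0.36, edgeR adjusted p = 0.0076). Both genes repeat the order seen for Rpl13a, with the gWT libraries between the gKO libraries. Rpl41, the shortest member, had 147, 168 and 386 CPM in gKO, against 189, 257 and 287 CPM in gWT, and fell by 0.64 (SE 0.16, edgeR adjusted p = 0.0453). The other called genes of the large subunit were Rpl15, Rpl19, Rpl23a, Rpl32, Rpl34, Rpl36, Rpl36a and Rpl39, with adjusted p from 0.009 to 0.0495.

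Several long members of the large subunit did not pass the test in either comparison. Rpl3, which reaches the peptidyl transferase centre, had 891, 816 and 1262 CPM in gKO, against 834, 904 and 855 CPM in gWT. Its log2 fold change was -0.03 (SE 0.06, edgeR adjusted p = 0.850) without replicate 3. Rpl4 had 926, 925 and 1203 CPM in gKO, against 889, 998 and 966 CPM in gWT (log2 fold change -0.05, edgeR adjusted p = 0.705). Rpl5, which carries the 5S RNA into the ribosome and can bind the p53 regulator Mdm2, was the only gene besides Rpl26 with a positive estimate, at 0.06 (edgeR adjusted p = 0.698). For Rpl4 the values of gKO replicates 1 and 2 lie within the gWT range, and for Rpl3 and Rpl5 the groups overlap.

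In the small subunit, 8 of 30 genes were called lower without replicate 3, and the median log2 fold change was -0.28. Rps14, which lies near the path of the messenger RNA and is the human gene lost in 5q- syndrome, had 533, 471 and 1068 CPM in gKO replicates 1, 2 and 3, against 615, 760 and 658 CPM in gWT. The log2 fold change was -0.44 (SE 0.08, edgeR adjusted p = 0.0057) without replicate 3. Rps18 had 262, 267 and 615 CPM in gKO, against 319, 415 and 354 CPM in gWT (log2 fold change -0.47, edgeR adjusted p = 0.0065). In both, gKO replicates 1 and 2 are below and replicate 3 is above all gWT libraries. Rps9, which acts in decoding accuracy, had 766, 740 and 1566 CPM in gKO, against 866, 980 and 937 CPM in gWT (log2 fold change -0.31, edgeR adjusted p = 0.0085). Rps7 had the lowest estimate of the called small subunit genes, with 367, 344 and 868 CPM in gKO, against 424, 606 and 562 CPM in gWT, and fell by 0.59 (SE 0.13, edgeR adjusted p = 0.0332). Rps10, Rps16 and Rps20 were called as well. Rps10 and Rps20 are marked with ubiquitin when ribosomes collide.

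Rps29 and Rps21, among the smallest proteins of the subunit, had the lowest estimates of the whole family, -0.94 and -0.86, without being called. Rps29 had 36.9, 52.2 and 123 CPM in gKO, against 48.4, 88.2 and 118 CPM in gWT, and the SE of its log2 fold change was 0.45 (edgeR adjusted p = 0.318). The 3 gWT values of Rps29 span a wide range, and gKO replicate 2 lies within it. Rps21 had 40.6, 45.7 and 135 CPM in gKO, against 51.0, 98.5 and 84.1 CPM in gWT (SE 0.25, edgeR adjusted p = 0.0760). Rpsa, also known as the laminin receptor precursor, had 1064, 1022 and 1739 CPM in gKO, against 1068, 1170 and 1189 CPM in gWT, with a log2 fold change of -0.14 (edgeR adjusted p = 0.182). Rps27a, which is made as a fusion to ubiquitin, had 484, 414 and 962 CPM in gKO, against 431, 596 and 554 CPM in gWT, so that its groups overlap.

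**Figure D2:**
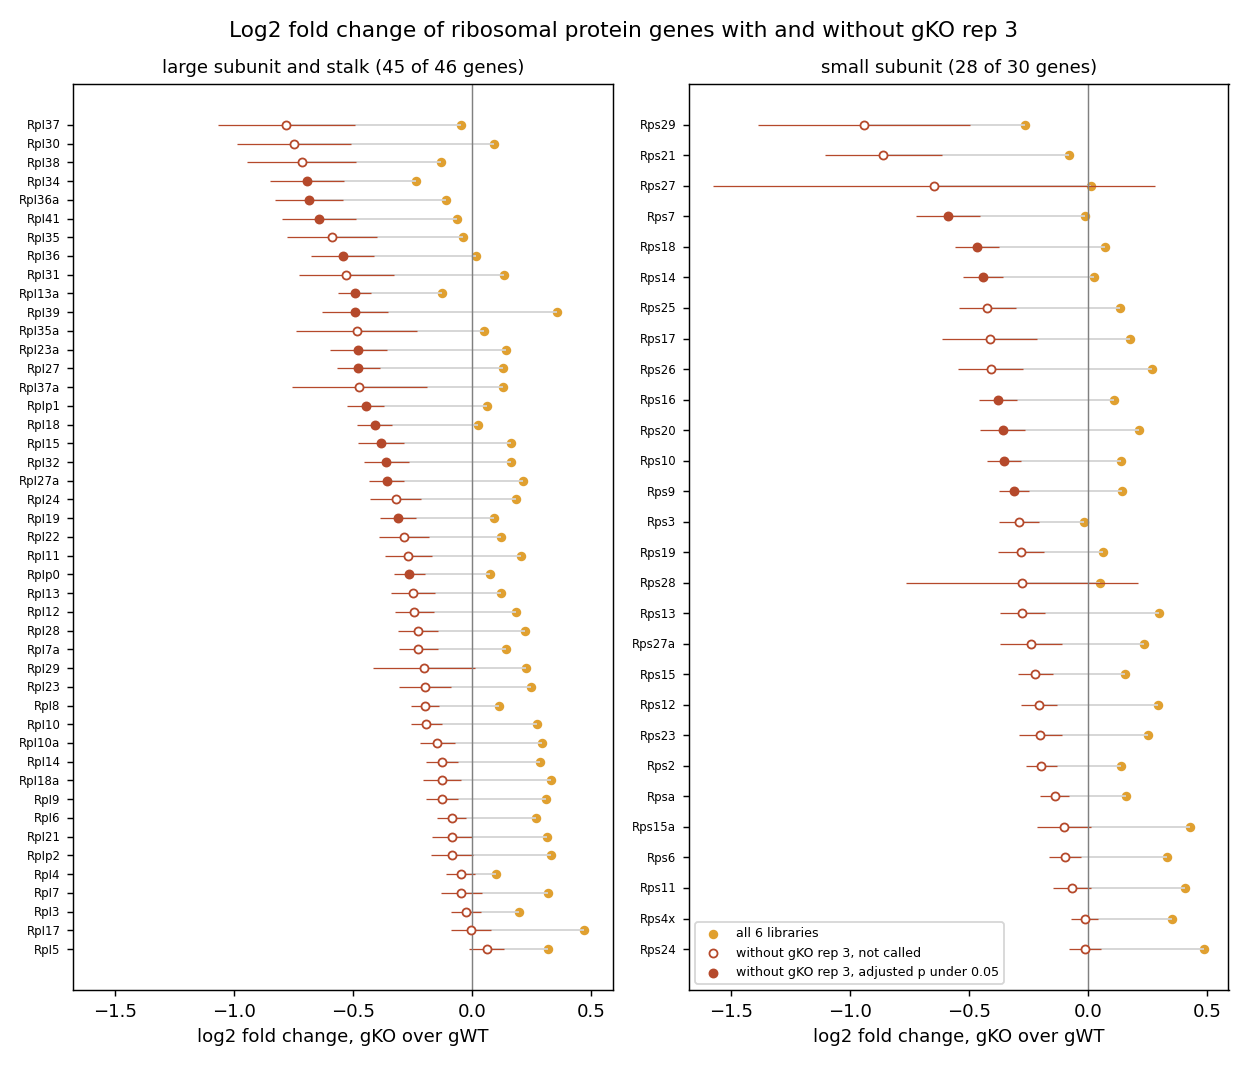
Log2 fold change of gKO over gWT for 73 of the 76 genes (Rpl26 is among those left out), with all 6 libraries (yellow) and without gKO replicate 3 (red, bars are SE, filled where the edgeR adjusted p is under 0.05). The 22 filled points are all below 0, and no gene passes the test with all 6 libraries.

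The number of calls without gKO replicate 3 changed when a gWT library was left out as well. It was 50 without gWT replicate 1, among them all 23, 7 without gWT replicate 2 and 4 without gWT replicate 3. The 4 genes called in each of these fits were Rpl13a, Rpl18, Rplp1 and Rps14. The share of all genes called lower in these fits is not given here, so the change in number cannot be read as particular to the family. Leaving out gKO replicate 1 or 2 leaves 1 gKO library, and no calls are given for those fits. The median log2 fold change of the family stayed between -0.37 and -0.22 in the 5 fits that left out 1 further library.

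Within the family the size of the differences went with length, least so in gKO replicate 3. For the 72 genes whose counts are not mostly in a copy, the Spearman correlation of a gene's deviation from the gWT mean with its coding length was 0.69 in gKO replicate 1, 0.39 in replicate 2 and -0.23 in replicate 3, against 0.73, -0.65 and -0.53 in the gWT replicates. These values are across genes that share their library and are given as a description. The gWT deviations are taken from the mean of these same libraries. A positive correlation in gWT replicate 1 is thus tied to the negative ones in the other gWT replicates. In the 24 shortest genes (75 to 405 coding bases) the median deviation was -0.52 in gKO replicate 1, -0.36 in replicate 2 and 0.85 in replicate 3, against -0.32, 0.18 and 0.12 in gWT. In the 24 longest (582 to 1257 bases) it was -0.14, -0.23 and 0.72 in gKO, and -0.09, 0.10 and 0.01 in gWT. The gap between the shortest and the longest genes was thus widest in gKO replicate 1 and in gWT replicate 1, 1 library of each genotype, and both sets were high in gKO replicate 3. The order of the 72 genes by level was nearly the same in every library, with Spearman correlations of 0.97 to 0.99 between pairs.

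**Figure D3:**
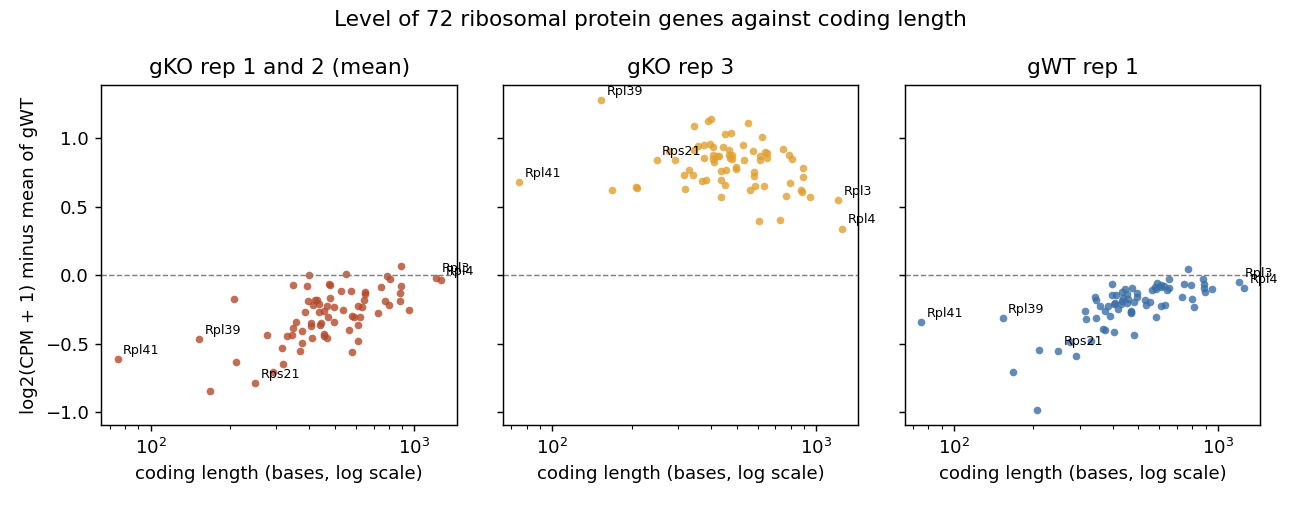
Log2(CPM + 1) minus the gWT mean for 72 genes against coding length on a log axis, for the mean of gKO replicates 1 and 2, for gKO replicate 3 and for gWT replicate 1. The shortest genes lie lowest in the first and the last panel, and all 72 genes lie above 0 in gKO replicate 3.

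When the trend of each library with transcript length, fitted over all genes, was removed from the counts, most of the calls were lost. Without gKO replicate 3, 5 members were then called lower, against 3.47% of all genes, and 1 higher, against 3.83%. The 5 were Rpl13a (log2 fold change -0.32, edgeR adjusted p = 0.0017), Rps7 (-0.39, 0.0109), Rpl15 (-0.31, 0.0323), Rps20 (-0.38, 0.0354) and Rps16 (-0.22, 0.0476), and all 5 were among the 23. The gene called higher was Rpl17 (log2 fold change 0.24, edgeR adjusted p = 0.0184). Rplp1, Rpl18 and Rps14 were called in every fit that left out a gWT library. They did not pass the test with the trend removed (log2 fold change -0.11, -0.14 and -0.14, edgeR adjusted p = 0.272, 0.162 and 0.172). The length used was that of the principal annotated transcript, 499, 679 and 597 bases for Rplp1, Rpl18 and Rps14. For Rpl13a, Rps7, Rpl15, Rps20 and Rps16 it was 1047, 954, 1922, 3706 and 1109 bases. Rps20, with 357 coding bases, went from -0.36 to -0.38, and Rplp1, with 342, from -0.45 to -0.11. Which calls remained thus depended on the annotated transcript, and its use in microglia was not tested. The median log2 fold change of the family was -0.07, with 49 of 76 genes negative. With all 6 libraries and the trend removed, 0 members were called higher and 0 lower by edgeR, against 1.13% and 1.01% of genes. At an unadjusted p under 0.05, 3 were higher and 4 lower, against 8.21% and 7.62%, and the median was 0.0086.

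For 4 members most counts stood in the row of a copy. The copies have a single exon each and differ from the coding sequence of the parent gene by few bases, which is why short stretches are shown here. The stretches are coding bases 162 to 191 of Rpl26 (parent at chr11:68901583-68906989, plus strand; copy Gm15772 at chr5:3236431-3236868, plus strand), 81 to 110 of Rpl30 (parent at chr15:34440505-34443640, minus strand; copy Gm12191 at chr11:49678710-49679057, minus strand) and 117 to 146 of Rpl34 (parent at chr3:130726831-130730398, minus strand; copy Rpl34-ps1 at chr6:71124610-71124963, plus strand). They are taken from the GENCODE M21 transcripts of GRCm38, and capitals mark the base that differs.
Rpl26: agttcaggttgttcgCggacactacaaagg
Gm15772: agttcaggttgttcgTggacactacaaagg
Rpl30: cgtgctgggctacaaGcagactctgaagat
Gm12191: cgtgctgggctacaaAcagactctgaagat
Rpl34: gaaagcacctaaatcTgcatgtggcgtgtg
Rpl34-ps1: gaaagcacctaaatcCgcatgtggcgtgtg

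Over the whole coding sequence there were 2 differences in 435 bases for Rpl26, 1 in 345 for Rpl30 and 2 in 351 for Rpl34. Rps27 (chr3:90212522-90213651, minus strand) and its copy Rps27rt (chr9:114982366-114982739, minus strand) had 0 differences over 252 coding bases. A read from the coding sequence that covers no differing base fits both rows.

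The row of Rpl26, a large subunit protein, held 152, 0 and 0 counts for gKO replicates 1, 2 and 3, against 141, 18.9 and 55.9 for gWT. Gm15772, its copy, held 5951, 4863 and 10519 counts for gKO, against 5684, 7724 and 7159 for gWT. The row named Rpl26 thus holds few of the counts that carry this sequence, and its own log2 fold change cannot be read as a level of the gene. The sum of both rows was 349, 334 and 744 CPM in gKO, against 343, 443 and 423 CPM in gWT. Replicate 3 is the highest library, and gKO replicate 1 lies within the gWT range. The sum had a log2 fold change of -0.25 without replicate 3 (SE 0.09, edgeR adjusted p = 0.114).

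The sum of Rpl30 and Gm12191 was 196, 181 and 439 CPM in gKO, against 163, 270 and 238 CPM in gWT, with a log2 fold change of -0.25 (edgeR adjusted p = 0.549) without replicate 3. Rpl34 alone had 36.7, 30.7 and 71.1 CPM in gKO, against 47.2, 65.7 and 50.02 CPM in gWT, and was called. The sum with Rpl34-ps1 was 204, 178 and 459 CPM in gKO, against 212, 338 and 301 CPM in gWT, so that the call did not hold (log2 fold change -0.58, SE 0.20, edgeR adjusted p = 0.150). Rps27, a zinc finger protein of the small subunit, had 0.686 to 2.90 CPM in gKO and 0.743 to 2.28 CPM in gWT by itself. With Rps27rt it had 74.4, 97.1 and 286 CPM in gKO, against 107, 150 and 153 CPM in gWT. This sum fell by 0.68 (SE 0.16, edgeR adjusted p = 0.0323) without replicate 3. These sums were formed after the values had been seen.

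The transcript annotation holds 576 copies, of any gene type, for 73 of the 76 genes. Each has at least 95% identity to the principal transcript of a member, over an aligned length of at least 90% of that member's coding length. The aligned bases need not lie in the coding sequence. Rpl21 has the most, 56, and Rpl8 and Rps3 are among those with none. Only 12 copies, of 11 members, are processed pseudogenes or single-exon genes with a row of their own in the deposited table. Rps3, which lies at the entry of the messenger RNA channel, had 694, 608 and 1043 CPM in gKO, against 704, 873 and 793 CPM in gWT. Rpl8 had 633, 636 and 1081 CPM in gKO, against 748, 721 and 705 CPM in gWT. In both genes replicate 3 is the highest library, and the other gKO libraries are below all gWT libraries, with edgeR adjusted p of 0.0512 and 0.0514 without replicate 3.

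**Figure D4:**
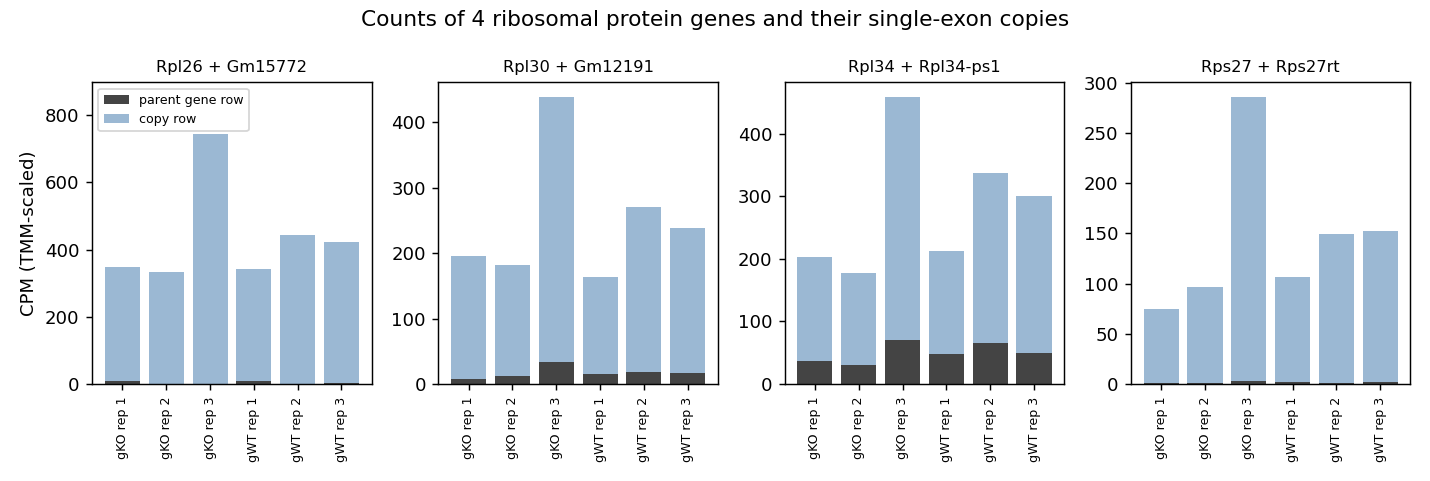
CPM of 4 genes split between the row of the parent gene (dark) and the row of its single-exon copy (light) in each library. The copy row holds most of each bar, and the sums are highest in gKO replicate 3.

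Per kilobase of the principal transcript, the gWT level of members spanned a wide range. Rplp1 was highest at 2076 CPM per kilobase, followed by Rps12 at 1396, Rps9 at 1235, Rpl13 at 1195 and Rpl10 at 1161 CPM per kilobase. Among genes whose counts are not mostly in a copy, Rps28 was lowest at 36.5 CPM per kilobase, and it had 7.90, 16.0 and 20.6 CPM in gKO, against 6.01, 17.6 and 19.3 CPM in gWT. The low values of Rps28 in gKO replicate 1 and gWT replicate 1 stand side by side across the genotypes.

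The members lie on 19 chromosomes, and 4 of them (Rpl10, Rpl36a, Rpl39 and Rps4x) are X-linked. Counts of Xist, the RNA that silences an X chromosome, were 0, 0 and 8 in gKO, against 2519, 2000 and 1830 in gWT. Counts of the Y-linked Ddx3y were 1522, 1519 and 1477 in gKO, against 1220, 1313 and 1311 in gWT. The genotypes thus differ in Xist as well as in Mir137, and the labels give no sex for any library. In every comparison of gKO with gWT here, genotype and a difference in the sexes of the animals sampled cannot be told apart. Rps4x had 920, 927 and 1704 CPM in gKO, against 883, 929 and 969 CPM in gWT (log2 fold change without replicate 3 -0.01, edgeR adjusted p = 0.925). Rpl10, which completes the large subunit near the peptidyl transferase centre, had 819, 813 and 1724 CPM in gKO, against 861, 995 and 926 CPM in gWT (-0.19, adjusted p = 0.0850). Rpl36a had 47.8, 51.0 and 121 CPM in gKO, against 62.2, 88.4 and 86.2 CPM in gWT (-0.69, adjusted p = 0.009). Rpl39 had 74.8, 93.1 and 282 CPM in gKO, against 93.2, 131 and 128 CPM in gWT (-0.49, adjusted p = 0.0495). Without replicate 3 the median of the 4 X-linked genes was -0.34 and that of the 72 autosomal genes was -0.28. With the length trend also removed these medians were -0.074 and -0.066. With all libraries they were 0.31 and 0.14, and the difference was not tested.

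Some cytosolic ribosomal proteins and their relatives have genes with other names. Fau, which encodes Rps30 fused to a ubiquitin-like protein, had 493, 456 and 1087 CPM in gKO, against 527, 690 and 672 CPM in gWT, and fell by 0.42 without replicate 3 (SE 0.10, edgeR adjusted p = 0.0215). Gnb2l1, the older symbol of the scaffold protein Rack1, had 930, 784 and 1421 CPM in gKO, against 887, 977 and 990 CPM in gWT (-0.16, adjusted p = 0.220). In both, gKO replicate 3 was the highest library. Of 11 tested genes of this list, 3 were called lower and 0 higher without replicate 3, against 3.82% and 3.99% of all genes, with a median of -0.27. With all libraries 0 were called by edgeR, 0 had an unadjusted p under 0.05 and the median was 0.18. With the length trend removed and without replicate 3, 1 was called lower and the median was -0.0062, and neither Fau (-0.16, adjusted p = 0.146) nor Rps27rt (-0.26, 0.203) passed the test. Without replicate 3 the other called genes were Rps27rt and Rpl7l1, which works in ribosome assembly. Rpl7l1 had 71.0, 68.0 and 80.9 CPM in gKO, against 84.3, 91.3 and 95.1 CPM in gWT, so that here replicate 3 lay below gWT too (log2 fold change -0.38 without replicate 3, edgeR adjusted p = 0.0266, and -0.30 with all libraries, adjusted p = 0.469). Rps3a1, a further ribosomal protein gene left out by the form of its symbol and named after its values were seen, had a log2 fold change of -0.21 (edgeR adjusted p = 0.203).

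The mitochondrial ribosome has its own proteins, encoded by Mrpl and Mrps genes. Of 77 tested, 0 were called by edgeR in either comparison. At an unadjusted p under 0.05, 11 were lower without replicate 3, which is near the 12.3% of all genes, and 1 was lower with all libraries. Their median log2 fold change was -0.12 without replicate 3, -0.04 with the length trend also removed, and 0.18 with all libraries. They took 0.126%, 0.122% and 0.194% of counts in gKO, against 0.133%, 0.142% and 0.137% in gWT, the same order of libraries as the cytosolic family.

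Genes of other TOP messenger RNAs of mammals, most of them translation factors, form a list of their own. Of 22 tested, 1 was called lower and 0 higher without replicate 3, close to the 3.82% and 3.99% of all genes, and their median was -0.04, beside -0.02 over all genes. The median was -0.0051 with the length trend also removed, with 1 gene called in each direction, and 0.17 with all libraries, where edgeR called 0 and 1 gene in each direction had an unadjusted p under 0.05. The elongation factor gene Eef1a1 had 6847, 6771 and 8887 CPM in gKO, against 6566, 6867 and 7108 CPM in gWT (-0.02, edgeR adjusted p = 0.884). Eef2 had 3083, 2853 and 2127 CPM in gKO, against 3031, 2868 and 3092 CPM in gWT (-0.02, adjusted p = 0.862), and here gKO replicate 3 was the lowest library. Tpt1, a short and abundant TOP gene, had 1487, 1298 and 2984 CPM in gKO, against 1371, 1692 and 1621 CPM in gWT (-0.17, adjusted p = 0.230). The called gene was Vim, an intermediate filament gene, with 206, 195 and 229 CPM in gKO, against 301, 271 and 264 CPM in gWT (-0.48, adjusted p = 0.0016). The difference between these genes and the ribosomal protein genes was not tested.

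Of the upstream regulators, Ddit4, an inhibitor of mTOR that is induced by stress, was higher in gKO with and without replicate 3. Ddit4 had 257, 250 and 167 CPM in gKO, against 72.8, 88.7 and 85.2 CPM in gWT, without overlap. Its log2 fold change was 1.45 with all libraries (edgeR adjusted p = 0.0221) and 1.61 without replicate 3 (SE 0.09, adjusted p = 5.5e-08). Rragc, a GTPase that brings mTOR to the lysosome, had 151, 163 and 172 CPM in gKO, against 114, 108 and 110 CPM in gWT (0.50 without replicate 3, adjusted p = 0.0016). These 2 were the called genes of 29 tested in the list of mTOR and TOP regulators without replicate 3, against 3.99% of all genes, and 0 were called lower. The median of the list was 0.12 without replicate 3, 0.09 with the length trend also removed, where 2 were again called higher, and 0.0099 with all libraries, where Ddit4 alone was called. Larp1 (0.25, adjusted p = 0.116) and the growth regulator Myc (0.13, adjusted p = 0.754) were not called.

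Among 42 ribosome biogenesis genes, 1 was called lower, the Rpl7l1 named above, and 0 higher without replicate 3, with a median of 0.03. The median was 0.10 with the length trend also removed, with 1 gene called in each direction, and 0.08 with all libraries, where edgeR called 0 and 4 genes had an unadjusted p under 0.05 (3 higher, 1 lower). Among 19 genes of ribosome quality control and the p53 response to free ribosomal proteins, 2 were called higher, against 3.99% of all genes, and 0 lower without replicate 3, with a median of -0.01. With all libraries edgeR called 0 of the 19, 1 was higher at an unadjusted p under 0.05, and the median was -0.04. With the length trend removed and without replicate 3, 1 was called higher and the median was -0.03. Mdm2, the ubiquitin ligase that free Rpl5 and Rpl11 inhibit, had 65.1, 84.6 and 63.8 CPM in gKO, against 54.4, 48.6 and 50.2 CPM in gWT (0.54, edgeR adjusted p = 0.0168, and 0.318 with all libraries). Gtpbp1, a GTPase that acts on stalled ribosomes, had 119, 101 and 93.7 CPM in gKO, against 82.7, 89.9 and 88.2 CPM in gWT (0.33, adjusted p = 0.0492, against 0.542 with all libraries and 0.0503 with the length trend removed). The gKO libraries lie above all gWT libraries for both genes.

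**Figure D5:**
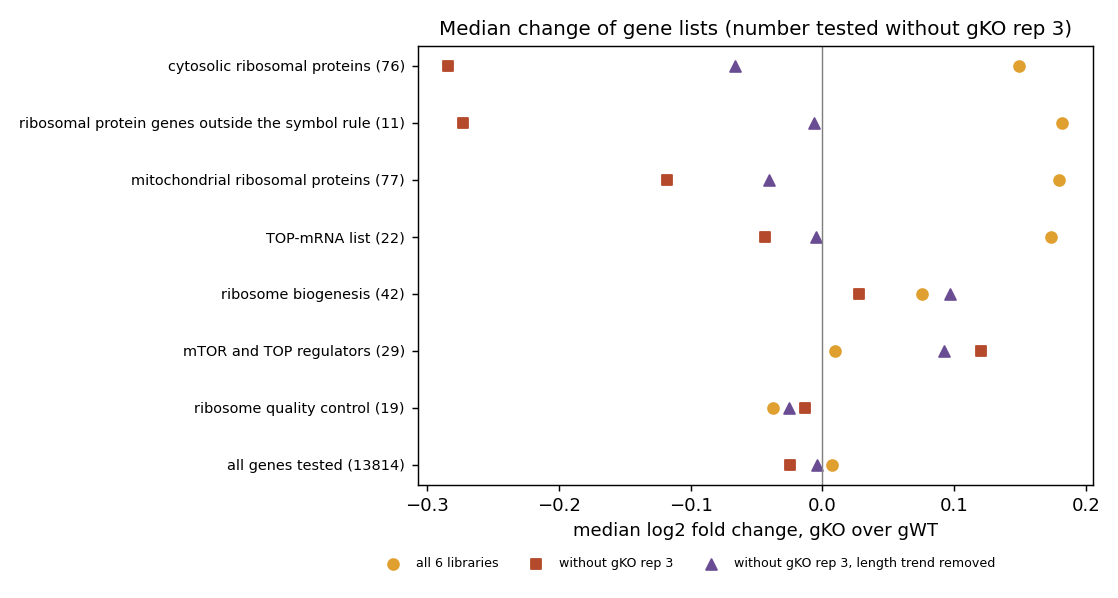
Median log2 fold change of gKO over gWT for the ribosomal protein genes, 6 related lists and all genes tested, with all 6 libraries (circles), without gKO replicate 3 (squares) and without it after removal of the length trend (triangles). The cytosolic family has medians of 0.15, -0.28 and -0.07.

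Markers of other cells also differed between the groups, and their part in the levels of ribosomal protein genes was not tested. Of all genes tested, 3.82% were called lower and 3.99% higher without gKO replicate 3, and 0.231% and 0.395% with all libraries. The 8 fibroblast and matrix markers had a summed level of 344 to 523 CPM in gKO and 1152 to 1515 CPM in gWT, with 6 called lower without gKO replicate 3 and 5 with all libraries. The 12 endothelial and mural markers had 443 to 572 CPM in gKO and 859 to 1109 CPM in gWT, with 8 and 2 called lower. The 12 neutrophil markers had 914 to 1340 CPM in gKO and 582 to 699 CPM in gWT, with 6 and 2 called higher. The 8 monocyte markers had 143 to 208 CPM in gKO and 79.4 to 91.0 CPM in gWT, with 2 called higher in both comparisons. All markers of these 4 lists had counts in every library. The 8 astrocyte markers had 258 to 308 CPM in gKO and 360 to 402 CPM in gWT, with 1 and 0 called lower. The 8 border macrophage markers had 1618 to 1710 CPM in gKO and 1504 to 1563 CPM in gWT. Of these, 1 was called in each direction without gKO replicate 3 and 0 with all libraries. The same numbers were called among the 10 microglial markers. The 8 oligodendrocyte markers had 374 to 442 CPM in gKO and 345 to 358 CPM in gWT. Of 7 tested, 1 was called in each direction without gKO replicate 3, and 1 was called higher with all libraries. The erythroid markers had a summed level of 39.8, 39.0 and 133 CPM in gKO replicates 1, 2 and 3, against 88.3, 77.8 and 100.04 CPM in gWT, with 2 of 4 tested called lower without replicate 3 and 0 with all libraries. Between 1 and 3 of these 6 markers had 0 counts in each library. The ependyma and choroid plexus markers had 1211, 977 and 2877 CPM in gKO, against 2872, 1786 and 1710 CPM in gWT, with 1 and 0 of 6 tested called lower. In both lists, as in the share of ribosomal protein counts, gKO replicates 1 and 2 were below every gWT library. In the erythroid list gKO replicate 3 was above every gWT library. In the ependyma and choroid plexus list it was level with gWT replicate 1 (2877 against 2872 CPM). That gWT library was the highest of gWT in this list and the lowest of gWT in the share of ribosomal protein counts. The neutrophil sum was above every gWT library in each gKO library, at 937, 914 and 1340 CPM. The share of ribosomal protein counts was above gWT in gKO replicate 3 only, and below gWT in gKO replicates 1 and 2. In the authors' deposited table of genes selected as higher (75 genes) or lower (201 genes) in gKO, 0 of the 76 members are listed.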

How the data were processed

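The table that the authors deposited holds expected counts per gene symbol (estimated, not normalized) for 6 libraries, 3 of each genotype. Per the submitters' processing notes, the tools and builds were STAR 2.7.9a, RSEM, DESeq2, GRCm38 and mm10, listed without role or order; the annotation and whether strand was used were not given in the sources used here, so that overlapping or antisense genes cannot be told apart. The authors' deposited gene lists give, per the file headers, a mean normalized count (signal), the log2 fold change with its error and test statistic (scores), and p-values with and without adjustment; only their gene names were used.

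After rounding, the counts went into edgeR 4.0.16 (R 4.3.3; default filter on low counts, TMM, robust quasi-likelihood test on genotype), with p adjusted by the Benjamini-Hochberg method over the 13403 genes tested, or 13814 without gKO replicate 3. All 76 members passed the filter. Levels are CPM with the TMM factors of all 6 libraries, and each SE was obtained as the log2 fold change over the root of the F statistic. Deviations use log2(CPM + 1). The length trend was removed by an offset from a lowess fit with a span of 0.3. Copies were found in GENCODE M21 transcripts with blastn 2.17.0. The fits were tested on simulated data. Alternatives were RLE and upper-quartile scaling, scaling without the members, no filter, DESeq2 1.42.0, limma-voom 3.58.1 with and without sample weights, the replicate number as a block, pseudogene counts added to the parent gene, and each library left out; adding the copy rows was chosen after seeing the data.

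The members, gene lists and tests were chosen with earlier results of these data known. Genes named were the most and least abundant members, those with the largest and smallest fold changes or smallest p, stalk and X-linked members among fixed genes, and up to 4 called genes of each list; the text gives a part of them, and a few members are counted but not reported here by name. Other genes named without a list (Rpl8, Rps3, Rps7, Rpl41, Rpl27a, Xist, Ddx3y, Rps3a1 and the copies among them) were chosen after their values were seen. Within each genotype, replicates were further apart than counting noise allows (chi-square per degree of freedom of 6.49 to 101), so all were kept as separate libraries.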

Additional observations from a re-analysis of the deposited data

How the results depend on the processing

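With all 6 libraries, the median log2 fold change of the ribosomal protein genes was -0.23 under voom with quality weights, where 0 were called and 11 were lower at an unadjusted p under 0.05. Leaving out each library in turn gave medians of -0.28 to 0.35 and 0 to 23 genes called lower; the values of -0.28 and 23 are those without gKO replicate 3. Rps24 and Rpl17 changed sign without that library, with log2 fold changes of -0.012 to 0.69 and -0.0054 to 0.66 over the libraries left out. Without gKO replicate 3, removal of the length trend gave 5 genes called lower, 1 called higher and a median of -0.066. Leaving out a gWT library as well gave 4 to 50 genes called lower. The other scalings, filters, tools and copy sums gave 19 to 30. The shares of all genes called lower in these fits are not given here. Scalings, filters and tools cannot change the share of counts in the family, which is taken from unscaled counts. With each library left out in turn, the mean share was 2.95% to 4.32% in gKO and 3.42% to 3.72% in gWT. The gKO mean could thus lie below or above the gWT mean. No label says that the replicate numbers pair the libraries. The correlations of same-numbered deviations were 0.0529, -0.0475 and 0.0153, and not every library correlated best with its own number. These values cannot exclude a pairing by number. With the replicate block, 27 genes were called lower without gKO replicate 3, of which 21 were among the 23. The median with all libraries was 0.08 under that block. With a replicate left out, the arm of gKO can hold 1 library, which is then assumed to vary like the others.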
